A study of Homo sapiens with 12 samples.

Results

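Neurotensin and 8 genes used as markers of neuroendocrine cells were followed in spheroids of the SBC3 line, which comes from a human small cell lung cancer. The 9 genes are NTS, CHGB, SYP, NCAM1, UCHL1, ENO2, SCG2, SCG3 and INSM1, of 60649 genes in the deposited count tables. They were taken by gene symbol. NTS was selected on its count, the highest of any gene in a control library, so its levels and its differences from control are given below as a description, with no test. The study set teriflunomide, which blocks the pyrimidine synthesis enzyme DHODH, beside lurbinectedin, an agent that alkylates DNA in the minor groove and is given to patients with small cell lung cancer. Poly(A) RNA was sequenced from 4 groups of 3 libraries: control, teriflunomide, lurbinectedin, and both drugs together (combination). Every group came from the same cell line, and its labels give no genetic change, dose or exposure time. Nothing in the labels says whether the 3 libraries of a group came from separate cultures, so the p-values measure the spread between these libraries, which may be technical.

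Small cell lung cancer is a neuroendocrine carcinoma. Its typical cells carry dense-core granules, vesicles in which peptide hormones are stored with granin proteins until they are secreted. Neurotensin is one such peptide: it is cut out of a longer precursor by prohormone convertases, acts on the receptors NTSR1, NTSR2 and sortilin (SORT1), and is broken down outside the cell by peptidases. In the other members, CHGB (chromogranin B), SCG2 and SCG3 are granins, SYP (synaptophysin) is a membrane protein of small synaptic-type vesicles, and ENO2 is neuron-specific enolase, a glycolytic enzyme measured in serum as a tumour marker. NCAM1 is a cell adhesion molecule, UCHL1 a ubiquitin hydrolase abundant in neurons, and INSM1 a zinc-finger transcription factor of neuroendocrine differentiation.

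The label neuroendocrine was only partly borne out by the markers. Of 6 defining markers, 2 reached a mean of 1 CPM (1 count per 1000000 counts of the library) in each group, SYP and NEUROD1. CHGA, the chromogranin most used in diagnosis, had 6 counts over the 3 control libraries. Of the 9 genes followed here, 4 had enough reads to be tested (NTS, CHGB, SYP and ENO2), and the other 5 did not.

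The stretches of 250 bases before the RefSeq transcription start of 4 members are shown because these genes spanned the whole range of levels, from NTS at the top of the libraries to UCHL1 with no read. They are from RefSeq on GRCh38.p14, 5′ to 3′ on the strand of the gene, and capitals mark the motif matches named below. NTS lies at chr12:85874045-85874294 on the plus strand, SYP at chrX:49200194-49200443 on the minus strand, ENO2 at chr12:6914330-6914579 on the plus strand, and UCHL1 at chr4:41256678-41256927 on the plus strand.
NTS: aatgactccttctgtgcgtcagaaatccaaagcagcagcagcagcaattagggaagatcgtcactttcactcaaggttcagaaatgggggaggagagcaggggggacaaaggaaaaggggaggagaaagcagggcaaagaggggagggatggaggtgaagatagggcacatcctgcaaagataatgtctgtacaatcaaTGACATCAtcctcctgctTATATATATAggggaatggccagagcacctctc
SYP: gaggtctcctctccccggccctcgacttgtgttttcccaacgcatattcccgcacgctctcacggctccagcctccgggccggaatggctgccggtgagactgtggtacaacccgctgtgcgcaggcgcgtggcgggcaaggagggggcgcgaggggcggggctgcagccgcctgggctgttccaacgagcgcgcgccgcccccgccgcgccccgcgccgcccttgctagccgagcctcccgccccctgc
ENO2: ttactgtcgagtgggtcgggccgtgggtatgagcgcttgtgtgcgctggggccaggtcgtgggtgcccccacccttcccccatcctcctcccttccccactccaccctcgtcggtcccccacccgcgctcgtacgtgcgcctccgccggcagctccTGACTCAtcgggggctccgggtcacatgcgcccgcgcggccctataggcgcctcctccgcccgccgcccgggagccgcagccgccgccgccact
UCHL1: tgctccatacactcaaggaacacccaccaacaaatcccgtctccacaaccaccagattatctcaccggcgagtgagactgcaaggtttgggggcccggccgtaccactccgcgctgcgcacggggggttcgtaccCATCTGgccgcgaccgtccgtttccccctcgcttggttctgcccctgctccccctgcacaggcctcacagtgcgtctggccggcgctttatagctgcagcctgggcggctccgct

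The NTS stretch differed from the others in its base composition. It was 49.2% G and C, with 2 CpG dinucleotides, and 30.3% of 35116 promoter stretches of the same length were lower in G and C. The SYP and ENO2 stretches were both 74.0% G and C, with 31 and 30 CpG, and the UCHL1 stretch was 64.4%, with 20. The median over all stretches was 58.0% and 11 CpG. These motifs were searched as exact letters on both strands: the AP-1 site TGAGTCA, the cAMP response element TGACGTCA, and the E-boxes CAGCTG and CAGATG. ENO2 held 1 AP-1 match, on the opposite strand at -94 to -88 from the start, and 4.2% of all stretches held one. UCHL1 held 1 match to CAGATG, on the opposite strand at -115 to -110, as did 12.2% of all stretches. None of these 4 motifs was in the NTS or SYP stretch. Once the NTS letters had been seen, TATATA and TGACATCA were added to the search. NTS held 3 overlapping copies of TATATA between -33 and -24 and TGACATCA at -51 to -44, and 3.73% and 2.37% of all stretches held these motifs. A match is a string of letters and was not tested as a binding site. SCG3 is also in the table, with a stretch of 61.6% G and C that held CAGCTG at 2 places.

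Neurotensin RNA was among the most abundant RNAs of these cells in every group. NTS (ENSG00000133636.11, chromosome 12 from 85874295 to 85882992, plus strand, GRCh38) took 1.055, 1.046 and 0.928% of all counts in the 3 control libraries and 1.104, 1.003 and 0.9756% in the teriflunomide libraries. It took 0.7689, 0.7744 and 0.7389% in the lurbinectedin libraries and 0.8601, 0.806 and 0.6647% in the combination libraries. By this share, the 6 libraries without lurbinectedin were all above the 6 libraries with it. Of counts outside the mitochondrial genome the groups overlapped: NTS took 0.9975% in control replicate 3, and 1.007 and 1.074% in combination replicates 1 and 2. Among all genes by raw count, NTS was at rank 1 in control replicate 1 and at rank 4 in the other 2 control libraries, and its rank in treated libraries lay between 4 and 11. The genes with the highest count in those libraries were transcripts of the mitochondrial genome, whose share of counts was 6.26% to 7.17% in control, 8.42% to 22.6% under teriflunomide, 13.8% to 17.0% under lurbinectedin and 13.1% to 24.9% under the combination. With mitochondrial counts set aside, NTS was at rank 1 in all 3 control libraries, all 3 teriflunomide libraries and combination replicates 1 and 2. It was at rank 2, after the translation factor EEF1A1, in the 3 lurbinectedin libraries and combination replicate 3. Counted per kilobase of transcript, its rank lay between 3 and 15.

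**Figure D1:**
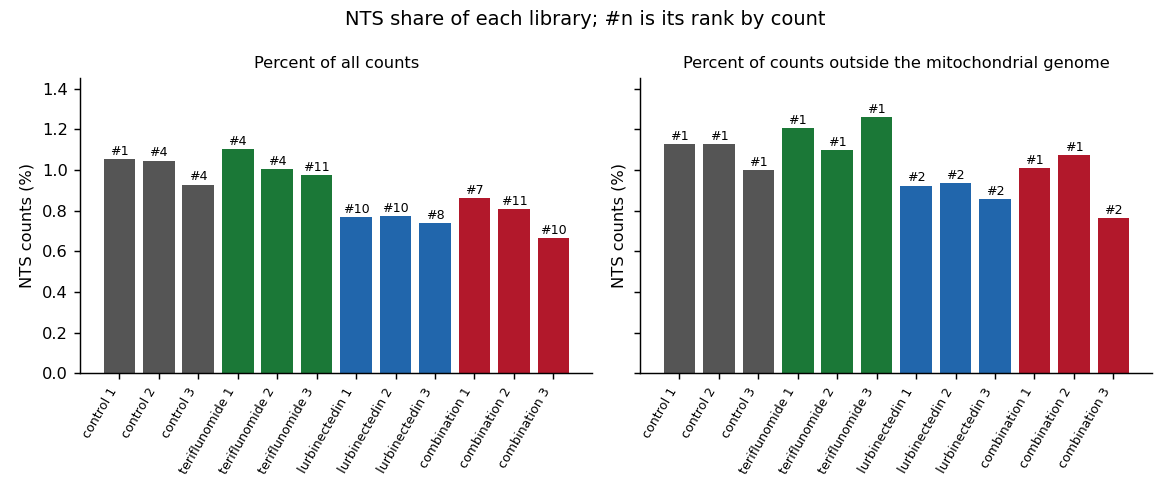
Bars show NTS reads as a percentage of all counts (left) and of counts outside the mitochondrial genome (right) in each of the 12 libraries, and the number above each bar is the rank of NTS by count. NTS took 0.6647% to 1.104% of all counts, and outside the mitochondrial genome it was at rank 1 or 2 in every library.

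On the scale used for the comparisons, CPM after TMM scaling of the libraries, the groups differed little in NTS. In bulk RNA, fewer cells of a type and less RNA per cell cannot be told apart, which holds for every level given here. NTS was at 9523, 9767 and 8501 CPM in control (9264 ± 672, SD, n = 3) and at 10120, 8958 and 11030 CPM with teriflunomide (10040 ± 1040). It was at 8640, 8281 and 7734 CPM with lurbinectedin (8218 ± 456) and at 8522, 9713 and 6190 CPM with the combination (8141 ± 1790). The range of each treated group overlapped that of control, and the combination libraries were the farthest apart, with replicate 3 the lowest of the 12. The order of the means was teriflunomide, control, lurbinectedin, combination, and no neighbours in that order differed beyond their spread. Against control, the log2 fold change was 0.12 under teriflunomide, -0.17 under lurbinectedin and -0.19 under the combination, each with a standard error of 0.145. Scaling by library size alone moved the lurbinectedin value to -0.41, a comparison in which the median over all genes was 0.05 with TMM and -0.18 with library size alone.

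The combination against each single drug does not compare the control libraries, and NTS was tested there, although the spread, scaling and filter of the fit came from all 12 libraries. Between combination and lurbinectedin the log2 fold change of NTS was -0.01 (95% interval -0.33 to 0.30, adjusted p = 0.972, edgeR). Between combination and teriflunomide it was -0.30 (95% interval -0.61 to 0.01, adjusted p = 0.0767, edgeR), just short of the threshold of 0.05. This value turned on single libraries: it was -0.44 (adjusted p = 0.0131) without combination replicate 2, -0.39 (adjusted p = 0.0449) without teriflunomide replicate 2, and -0.14 (adjusted p = 0.299) without combination replicate 3. Scaled by library size alone it was -0.40 (adjusted p = 0.00399), and in a fit of the 2 compared groups it was -0.29 (adjusted p = 0.240).

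Chromogranin B, synaptophysin and neuron-specific enolase RNA each rose under lurbinectedin and under the combination, by between 1.81-fold and 2.89-fold, and none of the 3 was called with teriflunomide alone. Read against all genes, this is common: 36.0% of the 16683 genes tested were called higher with lurbinectedin against control, 35.7% lower and 71.6% in either direction. For the combination against control, 34.1% were called higher, 34.4% lower and 68.4% in either direction. For teriflunomide against control, 3.88% were called higher, 2.13% lower and 6.01% in either direction. These 1002 genes became 216 to 264 when any 1 control library was left out, 1555 without teriflunomide replicate 3, and 265 when libraries were scaled by size alone. Fold changes also followed gene span, as the values by span further on show, so the counts of members called are read here as values and not as a response particular to neuroendocrine genes.

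CHGB, the granin, was the least abundant of the 4 per kilobase and had the highest fold change. Its gene (ENSG00000089199.10) lies on chromosome 20 from 5911510 to 5925353. CHGB was at 2.947, 3.073 and 3.015 CPM in control and 2.841, 2.693 and 3.643 CPM with teriflunomide. It was at 9.151, 8.477 and 8.499 CPM with lurbinectedin and 5.824, 10.07 and 5.835 CPM with the combination. Every library with lurbinectedin was above every library without it, and combination replicate 2 stood apart from the 2 other combination libraries. CHGB rose 2.89-fold with lurbinectedin (log2 1.53, SE 0.208, adjusted p = 1.48e-05, edgeR) and 2.39-fold with the combination (log2 1.26, SE 0.208, adjusted p = 0.000104, edgeR). With teriflunomide alone the log2 fold change was 0.02 (95% interval -0.44 to 0.48).

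The comparison of CHGB between combination and lurbinectedin depended on the libraries used. With all 12 libraries the log2 fold change was -0.27 (95% interval -0.70 to 0.15, adjusted p = 0.528, edgeR). Combination replicate 2 and teriflunomide replicate 3 had the highest mitochondrial shares, 24.9% and 22.6%. With both left out, CHGB was lower with the combination than with lurbinectedin (log2 -0.57, adjusted p = 0.00267, edgeR). That fit called 3640 of 16945 genes in this comparison, beside 0 of 16683 with all 12 libraries. Without combination replicate 2 alone, the CHGB value was -0.57 with an adjusted p of 0.0701 (edgeR). The rise against control was then smaller too, with a log2 fold change of 0.95 without combination replicate 2.

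SYP, the vesicle protein, varied little between the libraries of a group. Its gene (ENSG00000102003.11) lies on the X chromosome from 49187815 to 49200199 on the minus strand and shares 68 exon bases with the antisense gene SYP-AS1. That gene had at most 0.234 CPM in any library, and the use of strand in counting is not given in the sources used here. SYP was at 15.97, 17.47 and 16.99 CPM in control and 15.79, 15.47 and 14.09 CPM with teriflunomide. It was at 32.49, 29.77 and 30.40 CPM with lurbinectedin and 32.20, 36.14 and 33.89 CPM with the combination. The control and teriflunomide libraries did not overlap, and neither overlapped the libraries with lurbinectedin. SYP rose 1.84-fold with lurbinectedin (log2 0.88, SE 0.105, adjusted p = 4.21e-06, edgeR) and 2.03-fold with the combination (log2 1.02, SE 0.105, adjusted p = 1.13e-06, edgeR). Teriflunomide alone gave a log2 fold change of -0.15 (95% interval -0.38 to 0.07, adjusted p = 0.383, edgeR). Adding teriflunomide to lurbinectedin gave a log2 fold change of 0.14 (95% interval -0.08 to 0.36, adjusted p = 0.531, edgeR).

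ENO2, the glycolytic enzyme, was the most abundant of these 3 genes per kilobase. Its gene (ENSG00000111674.9) lies on chromosome 12 from 6913745 to 6923698, and its span overlaps LRRC23 with no shared exon base. ENO2 was at 39.11, 37.18 and 39.25 CPM in control and 33.45, 42.52 and 28.84 CPM with teriflunomide. It was at 63.33, 72.35 and 73.07 CPM with lurbinectedin and 70.83, 58.37 and 87.01 CPM with the combination. The teriflunomide libraries lay on both sides of control, while all 6 libraries with lurbinectedin lay above it. ENO2 rose 1.81-fold with lurbinectedin (log2 0.85, SE 0.158, adjusted p = 0.000249, edgeR) and 1.87-fold with the combination (log2 0.90, SE 0.158, adjusted p = 0.000167, edgeR). The log2 fold change was -0.14 with teriflunomide alone (95% interval -0.48 to 0.20) and 0.05 between combination and lurbinectedin (95% interval -0.28 to 0.39).

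**Figure D2:**
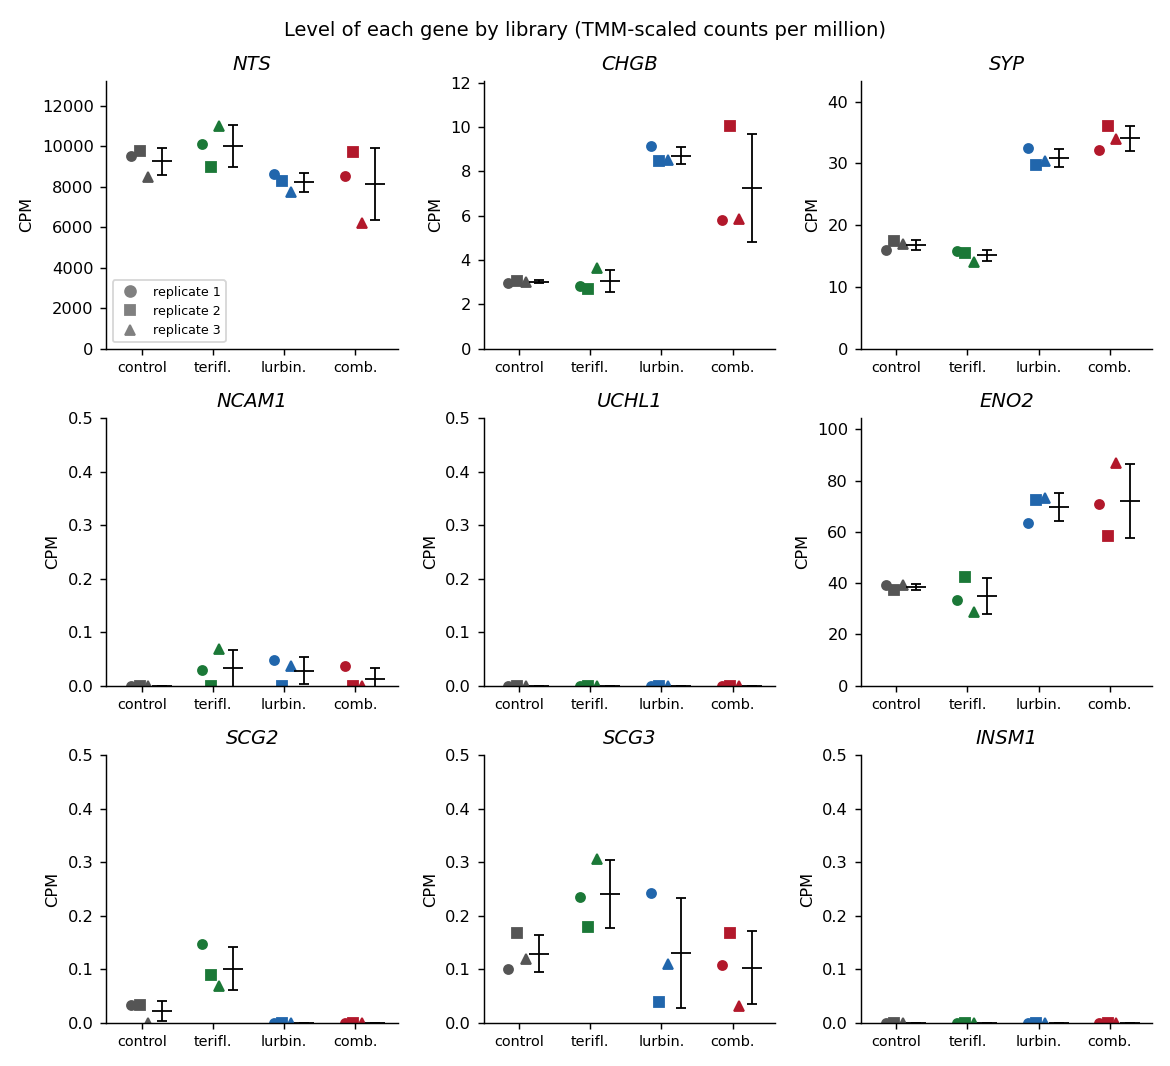
Each panel plots the level of 1 gene in TMM-scaled CPM, with 1 symbol per library and a bar for the mean ± SD of the 3 libraries of each group. CHGB, SYP and ENO2 are higher in all 6 libraries with lurbinectedin, NTS overlaps between groups, and NCAM1, UCHL1, SCG2, SCG3 and INSM1 stay below 0.5 CPM.

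In RPKM, which is CPM divided by the transcript length in kilobases, the 4 genes lay far apart. The control means were 5957 ± 432 for NTS, 8.997 ± 0.271 for ENO2, 3.268 ± 0.149 for SYP and 0.6772 ± 0.0142 for CHGB (SD, n = 3).

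The combination differed from teriflunomide alone in the same 3 genes. Against teriflunomide, CHGB was 2.36-fold, SYP 2.25-fold and ENO2 2.06-fold higher with the combination, with adjusted p-values of 0.000106, 2.64e-07 and 4.35e-05 (edgeR). This comparison called 35.2% of all tested genes higher and 70.9% in either direction. Between combination and lurbinectedin no member was called, and the background was 0 as well: edgeR called 0 of 16683 genes at adjusted p under 0.05, 2599 (15.6%) had an unadjusted p under 0.05, and DESeq2 called 584. That 0 rested on single libraries: 2067 genes were called without teriflunomide replicate 3 and 259 without combination replicate 2. The interaction asks whether teriflunomide had another effect in the presence of lurbinectedin than in its absence. Its log2 value was 0.29 for SYP (95% interval -0.02 to 0.61), 0.19 for ENO2 (-0.29 to 0.67) and -0.29 for CHGB (-0.92 to 0.34), and none was called where 0.258% of all genes were. Those 43 genes became 616 without teriflunomide replicate 3, 2 without control replicate 2 or 3 and 2 without lurbinectedin replicate 1 or 3. For NTS it was -0.13 with a standard error of 0.205.

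**Figure D3:**
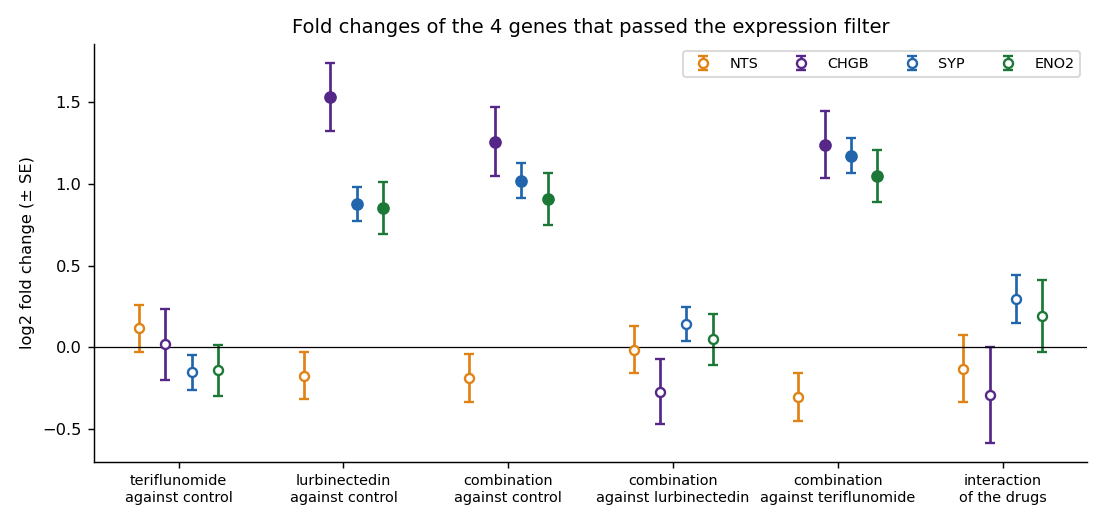
Points are log2 fold changes of NTS, CHGB, SYP and ENO2 in the 6 comparisons and bars are ± 1 standard error; filled points passed an adjusted p of 0.05, and open points did not or were not tested. CHGB, SYP and ENO2 lie between 0.85 and 1.53 in the 3 comparisons that add lurbinectedin, and NTS lies between -0.30 and 0.12 throughout.

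The other 5 members were at or close to 0 in all groups, and did not pass the expression filter. UCHL1 (chromosome 4, 41256413 to 41268455) and INSM1 (chromosome 20, 20368104 to 20370949, a single exon) had 0 counts in all 12 libraries. For a gene without a read over the 12 libraries, the upper limit is 0.008706 CPM (3 counts of the total), which covers counting error only. NCAM1 (chromosome 11, 112961247 to 113278436) had 6 counts in all, in 5 libraries, and none in control. The granin SCG3 (chromosome 15, 51681492 to 51721026) had 3, 5 and 4 counts in control, 8, 6 and 9 under teriflunomide, 5, 1 and 3 under lurbinectedin and 3, 4 and 1 under the combination. The granin SCG2 (chromosome 2, 223596940 to 223602361, minus strand) had 1, 1 and 0 counts in control, 5, 3 and 2 with teriflunomide, and 0 in each of the 6 libraries with lurbinectedin. For both granins the highest sum over a group was with teriflunomide, 23 counts for SCG3 and 10 for SCG2. With no expression filter, SCG2 was called lower with the combination than with teriflunomide (0 against 10 counts, adjusted p = 0.0227, edgeR), while NCAM1 and SCG3 were called in no comparison. That fit called 12915 of 35577 genes in the same comparison. The SCG2 call rests on 10 counts in the group with its highest sum, so no conclusion is drawn from it.

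Paralogs of the members were read where some members were not. INSM2, the paralog of INSM1, had a mean of 0.7035 CPM in control and rose to 3.084 with lurbinectedin (log2 2.12, SE 0.224, adjusted p = 1.16e-06, edgeR) and 2.854 with the combination (4.01-fold, adjusted p = 2.4e-06, edgeR). UCHL5, a proteasome-bound relative of UCHL1, was at 108.5 CPM in control and 75.78 with lurbinectedin (log2 -0.52, adjusted p = 0.0294, edgeR), a call lost when any of 5 single control or lurbinectedin libraries was left out. ENO1, UCHL3 and ENO3 were not called in any comparison with control. Over the 5 paralogs listed, INSM2 rose and UCHL5 fell with lurbinectedin, with a median log2 fold change of -0.01 beside 0.05 for all tested genes.

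Neuron-specific enolase was a small part of all enolase RNA. ENO2 made up 2.45, 2.38 and 2.53% of the summed RPKM of ENO1, ENO2 and ENO3 in control and 2.6, 3.46 and 3.73% with teriflunomide. It made up 3.53, 4.69 and 4.42% in the lurbinectedin libraries and 5.53, 4.53 and 6.3% in the combination libraries. The share was above control in all treated libraries, with means of 2.46 ± 0.0746%, 3.26 ± 0.587%, 4.21 ± 0.607% and 5.45 ± 0.885% (SD, n = 3). Each difference from control had p = 0.1 in a two-sided exact permutation test, the smallest value that 3 against 3 libraries allow, and combination against lurbinectedin had p = 0.2 in the same test. With teriflunomide the lower level of ENO1 (1257 CPM against 1827, log2 -0.54, adjusted p = 0.053, edgeR) stood beside an ENO2 level that was not called. ENO1 was called lower there without teriflunomide replicate 1 or without replicate 3.

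Of the tested receptors and enzymes that act on neurotensin, most fell with lurbinectedin, where 35.7% of all tested genes were also called lower. The median log2 fold change was -1.86 in the longest of 5 bins of genes by span. NTSR1 (53.9 kb) and PCSK1 (43.8 kb), both called lower, were in the next bin, where the median was -0.36. Of 12 genes listed for receptors, precursor cleavage and breakdown, 9 were tested: 7 were lower and 1 was higher with lurbinectedin, with a median log2 fold change of -1.98 beside 0.05 for all genes. With the combination 6 were lower and 2 higher (median -1.76, all genes 0.04), and with teriflunomide 1 was higher and 0 lower. The gene higher with lurbinectedin was THOP1, those higher with the combination were THOP1 and FURIN (log2 0.48, a call lost without control replicate 1 or combination replicate 2), and the gene higher with teriflunomide was PCSK1. With library size as the only scaling no gene of this list was called higher, and the lower calls again numbered 7 and 6.

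Among the receptors, SORT1, which binds neurotensin and sorts proteins between the Golgi and endosomes, was the most abundant, at 11.73 RPKM in control beside 0.101 for NTSR1. SORT1 was at 107.0 ± 4.1 CPM in control, 116.0 ± 4.29 under teriflunomide, 16.3 ± 3.15 under lurbinectedin and 24.17 ± 6.57 under the combination (SD, n = 3). It fell with lurbinectedin (log2 -2.71, SE 0.184, adjusted p = 1.41e-08, edgeR) and with the combination (log2 -2.14, SE 0.179, adjusted p = 1.39e-07, edgeR). NTSR1, the high-affinity G protein-coupled receptor, had 40 counts over the control libraries, 39 under teriflunomide, 11 under lurbinectedin and 13 under the combination. Its fall with lurbinectedin (2.83-fold lower, adjusted p = 0.0468, edgeR) was lost in 7 of 12 fits that left out 1 library, and with the combination it was not called (adjusted p = 0.0507, edgeR). NTSR2 had no count in any library.

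Convertases cut the peptide from its precursor. Of these, PCSK6 went from 6.21 CPM in control to 0.4639 under lurbinectedin and 0.3481 under the combination (log2 -3.71 and -4.13, adjusted p = 3.77e-08 and 2.19e-08, edgeR). PCSK1, a convertase of dense-core granules, rose with teriflunomide, from 2.766 to 5.346 CPM (log2 0.95, SE 0.166, adjusted p = 0.00577, edgeR). That call was lost when libraries were scaled by size alone, and when the fit held only the compared groups. PCSK5, a convertase with 46 counts over the control libraries, had 3 with lurbinectedin. With lurbinectedin PCSK1 fell to 0.8998 CPM (log2 -1.62, adjusted p = 5.44e-06, edgeR). PCSK2 and CPE, 2 other processing enzymes of granules, had 1 count each over all libraries.

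The peptidases split by gene. MME (neprilysin), which cuts neurotensin at the cell surface, had the highest RPKM of the list in control (140.9). It was at 1390 CPM in control and fell to 323.0 under lurbinectedin and 411.0 under the combination (log2 -2.11 and -1.76, adjusted p = 5.23e-09 and 3.41e-08, edgeR). NLN (neurolysin) fell from 73.5 to 18.66 and 17.65 CPM (log2 -1.98 and -2.06, adjusted p = 5.39e-08 and 4.63e-08, edgeR). THOP1 (thimet oligopeptidase), a close relative of neurolysin, rose from 83.34 to 147.6 CPM with lurbinectedin (log2 0.82, SE 0.205, adjusted p = 0.00251, edgeR), a call lost with library size as the only scaling. Its call with the combination (log2 0.51, adjusted p = 0.0402, edgeR) was lost in 8 of 12 fits that left out 1 library.

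Genes of the dense-core granule moved in both directions. Of 15 listed beside the members, 10 were tested, and 3 rose and 5 fell both with lurbinectedin (median log2 fold change -0.46, all genes 0.05) and with the combination (median -0.40). With lurbinectedin, 36.0% of all tested genes were called higher and 35.7% lower. PAM, which amidates peptide hormones, went from 31.11 CPM in control to 1.868 under lurbinectedin and 1.839 under the combination (log2 -4.05 and -4.08, adjusted p = 5.94e-10 and 6.98e-10, edgeR). RAB27A, a small GTPase that docks granules, fell from 16.67 to 6.155 CPM with lurbinectedin (log2 -1.43, adjusted p = 3.75e-06, edgeR), and CADPS2, which primes them for release, fell from 0.8931 to 0.02825 CPM (log2 -4.83, adjusted p = 1.03e-05, edgeR). BAIAP3, which acts in granule recycling, rose from 0.5431 to 2.85 CPM (log2 2.40, adjusted p = 2.07e-06, edgeR). The other 2 genes that fell were PTPRN2 and SLC18A1, and the other that rose besides CHGA was VGF. The SLC18A1 calls were each lost in 4 of 12 fits that left out 1 library. CHGA, which like CHGB is a granin, had 6 counts in control and 34 with lurbinectedin (log2 2.74, SE 0.609, adjusted p = 0.00108, edgeR) and 33 with the combination (log2 2.55, adjusted p = 0.00216, edgeR), still under 0.5 CPM. With teriflunomide 1 gene of this list, VGF, was called higher (12.96 to 29.48 CPM, log2 1.19, adjusted p = 0.0264, edgeR), which was lost without any 1 of 5 control or teriflunomide libraries.

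Genes of synaptic vesicles and their release, the class to which SYP belongs, were evenly split. Of 14 listed, 11 were tested, and 4 rose and 4 fell under lurbinectedin and under the combination (medians 0.01 and 0.00, all genes 0.05 and 0.04). The shares over all tested genes with lurbinectedin were 36.0% higher and 35.7% lower. SYT11, a synaptotagmin of vesicle trafficking, rose from 44.0 CPM in control to 140.9 under lurbinectedin and 157.9 under the combination (log2 1.68 and 1.84, adjusted p = 1.08e-09 and 6.5e-10, edgeR). It also rose with teriflunomide, to 66.82 CPM (log2 0.60, SE 0.0861, adjusted p = 0.00182, edgeR), a call made in each of the 12 fits without 1 library and with library size as the only scaling. The other genes that rose were STX1A, VAMP2 and SV2A, and those that fell included UNC13A, SNAP25 and RAB3A. STX1A, a syntaxin of the fusion machinery, rose from 2.298 to 7.771 CPM with lurbinectedin (log2 1.76, adjusted p = 1.45e-06, edgeR). UNC13A, which primes vesicles, fell from 84.54 to 11.2 CPM (log2 -2.91, adjusted p = 3.28e-10, edgeR), and SNAP25, which pairs with syntaxin, fell from 2.694 to 0.1961 CPM (log2 -3.71, adjusted p = 1.04e-05, edgeR). Teriflunomide gave 2 higher calls in this list, SYT11 and SYN1, and 1 lower call, RAB3A. The calls of SYN1 and RAB3A were lost in 9 and 7 of the 12 fits without 1 library. SYT4, SYT11 and SYN1 are also in the neuroendocrine signature described next to the lineage factors, as are CHGA of the granule list and MYT1 of the lineage list. YAP1, a lineage factor, is also in the non-neuroendocrine signature. The lists are therefore not separate counts of genes.

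Of the transcription factors that define subtypes of small cell lung cancer, YAP1 was the most abundant, at 38.96 RPKM in control beside 0.49 for NEUROD1. YAP1, which marks the subtype low in neuroendocrine genes, was at 245.9 CPM in control and 304.3 under teriflunomide, and fell to 64.81 under lurbinectedin and 97.17 under the combination (log2 -1.92 and -1.34, adjusted p = 1.28e-07 and 4.76e-06, edgeR). NEUROD1, a neurogenic factor, fell from 4.022 to 1.618 CPM with lurbinectedin (log2 -1.31, SE 0.228, adjusted p = 0.000151, edgeR) and to 2.511 with the combination (log2 -0.68, adjusted p = 0.012, edgeR), the latter lost without combination replicate 3. POU2F3, the tuft-cell factor, had 14, 25, 2 and 1 counts over the control, teriflunomide, lurbinectedin and combination libraries. Of 18 factors listed, 11 were tested, and 4 rose and 3 fell with lurbinectedin (median 0.16, all genes 0.05) and 5 rose and 3 fell with the combination. Beside these, 36.0% of all tested genes were called higher and 35.7% lower with lurbinectedin. With library size as the only scaling, the lurbinectedin calls in this list were 3 higher and 4 lower, with a median of -0.08. NHLH1 rose from 0.2929 to 1.561 CPM (log2 2.37, adjusted p = 3.37e-05, edgeR). PROX1 rose from 3.221 CPM in control to 5.578 with lurbinectedin (log2 0.79, adjusted p = 0.00435, edgeR) and 8.632 with the combination (log2 1.42, adjusted p = 3.77e-05, edgeR). MYT1 and POU3F2 also rose under lurbinectedin and under the combination, SOX2 with the combination, and RCOR2 fell with both. With teriflunomide PROX1 was called higher and RCOR2 lower (log2 0.95 and -0.81, adjusted p = 0.0208 and 0.00631, edgeR), and neither was called with library size as the only scaling. Leaving out 1 control library also ended the PROX1 call with teriflunomide, 5 of 12 single libraries ended the SOX2 call, and 3 and 1 ended those of MYT1 under lurbinectedin and under the combination.

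A signature of 25 genes of neuroendocrine small cell lung cancer, which includes 4 of the members (CHGB, SYP, SCG3 and INSM1), rose and fell in parts. Of its 15 tested genes, 8 rose and 5 fell with lurbinectedin (median 0.50, all genes 0.05), and 7 rose and 5 fell with the combination (median 0.62). The 8 that rose include the members CHGB and SYP. Over all tested genes, 36.0% were called higher and 35.7% lower with lurbinectedin, and 34.1% and 34.4% with the combination. BSN, a protein of the presynaptic scaffold, fell from 22.86 to 5.58 CPM with lurbinectedin (log2 -2.03, adjusted p = 2.74e-08, edgeR), KIF1A, a motor of vesicle transport, from 5.323 to 1.177 CPM (log2 -2.17, adjusted p = 3.31e-07, edgeR), and RTN1 from 1.316 to 0.08254 CPM (log2 -3.95, adjusted p = 3.72e-07, edgeR). The matching signature of 25 genes high in non-neuroendocrine tumours had 17 tested genes, of which 7 rose and 8 fell under lurbinectedin and under the combination (medians -0.28 and -0.50). MYOF, a membrane repair protein, fell from 26.43 to 0.8967 CPM with lurbinectedin (log2 -4.89, adjusted p = 1.26e-10, edgeR), and TGFBR2, a receptor for TGF-beta, from 182.2 to 41.42 CPM (log2 -2.14, adjusted p = 5.6e-10, edgeR). EPHA2, a receptor tyrosine kinase, rose from 46.58 to 491.0 CPM (log2 3.40, adjusted p = 2.47e-09, edgeR), and the matricellular gene CCN1 rose from 7.394 to 70.91 CPM (log2 3.26, adjusted p = 2.72e-10, edgeR). KIF5C and CRMP1 were the other 2 genes of the neuroendocrine signature that fell. Teriflunomide gave 3 higher and 0 lower calls in the neuroendocrine signature (SYT11, SYN1 and RTN1) and 1 higher and 1 lower in the other (PLAU and ANXA1). It called 3.88% of all tested genes higher and 2.13% lower. The calls of RTN1, PLAU and ANXA1 were lost in 8, 4 and 7 of the 12 fits without 1 library.

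Of 12 surface and peptide genes of neuroendocrine tumours, 2 had enough reads to be tested, DLL3 and L1CAM. DLL3, a Notch ligand used as a drug target in small cell lung cancer, was at 1.955 CPM in control and 2.325 with lurbinectedin and was not called in any comparison with control (log2 0.26 with lurbinectedin, 95% interval -0.33 to 0.85). L1CAM, an adhesion molecule of the same superfamily as NCAM1, fell from 28.86 to 14.46 CPM under lurbinectedin and to 13.69 under the combination (1.99-fold and 2.11-fold lower, adjusted p = 1.14e-05 and 6.32e-06, edgeR).

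Genes used as markers of other cell types also moved in these contrasts, although every group came from the same cell line. Their part in the results was not tested. Of 4 epithelial markers, KRT8 alone reached 1 CPM, and the summed level of the 4 was 236.1 to 251.8 CPM in control, 195.7 to 306.4 under teriflunomide, 399.8 to 432.8 under lurbinectedin and 373.0 to 443.6 under the combination. KRT8, a simple-epithelium keratin, rose from 242.8 to 421.5 CPM with lurbinectedin (log2 0.80, adjusted p = 0.000131, edgeR), while EPCAM, KRT18 and CDH1 had under 1 CPM in every group. Of 8 stromal and immune markers, 3 reached 1 CPM in control and 2 in each treated group. Their summed level was 520.1 to 550.0 CPM in control, 466.2 to 485.2 under teriflunomide, 186.9 to 220.4 under lurbinectedin and 198.5 to 226.9 under the combination. Nearly all of it came from the collagen genes COL1A1, at 266.0 CPM in control and 106.5 with lurbinectedin, and COL1A2, at 270.1 and 99.83. COL3A1 and the endothelial gene PECAM1 also fell (log2 -1.04 and -4.37, adjusted p = 0.0142 and 0.000105, edgeR), the COL3A1 call being lost without control replicate 2 or lurbinectedin replicate 3. The leukocyte and macrophage genes PTPRC and CD68, and VWF and DCN, were below 1 CPM in every group.

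Genes that fell with lurbinectedin were mostly longer than genes that rose. All tested genes outside the mitochondrial genome were put in 5 bins of nearly equal size by genomic span, from the shortest to the longest. The median log2 fold change with lurbinectedin in bins 1 to 5 was 0.69, 0.62, 0.28, -0.36 and -1.86, and 50.9, 56.9, 44.6, 21.2 and 5.83% of genes were called higher. The 4 tested members were all short, with spans of 8.7 kb for NTS, 9.95 kb for ENO2, 12.4 kb for SYP and 13.8 kb for CHGB, and all were in bin 2. Within that bin, CHGB was above 82.8% of genes in its lurbinectedin fold change, SYP above 61.9%, ENO2 above 61.1% and NTS above 19.8%. So SYP and ENO2 were close to the middle of genes of their length, CHGB was in the upper part and NTS in the lower part. With the combination the order of the 4 was the same, at 78.4, 71.4, 67.2 and 19.5%.

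Spans also differed between the genes that rose and fell within several lists. The 7 neurotensin receptor and enzyme genes that fell with lurbinectedin spanned 43.8 to 472.0 kb (median 150.0), and THOP1, which rose, 30.3 kb. In the granule list, the 5 that fell spanned 38.4 to 1050.0 kb and the 3 that rose 3.06 to 15.8 kb. In the neuroendocrine signature the 5 that fell spanned 111.0 to 275.0 kb, and the 8 that rose had a median of 15.3 kb and a maximum of 140.0 kb. Lineage factors did not separate in this way: the 3 that fell spanned 5.93 to 123.0 kb and the 4 that rose 4.88 to 140.0 kb. The non-neuroendocrine signature overlapped as well. There the 8 that fell spanned 5.74 to 176.0 kb (median 18.5) and the 7 that rose 3.83 to 36.2 kb (median 13.3). In the surface, epithelial and stromal lists all lurbinectedin calls went in the same direction. The vesicle list overlapped too: the 4 that fell spanned 7.26 to 117.0 kb (median 87.8) and the 4 that rose 4.4 to 25.6 kb (median 17.5). RAB3A, which fell, spanned 7.26 kb, while SYT11, which rose, spanned 25.6 kb. These are descriptions over genes, which are not replicates.

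**Figure D4:**
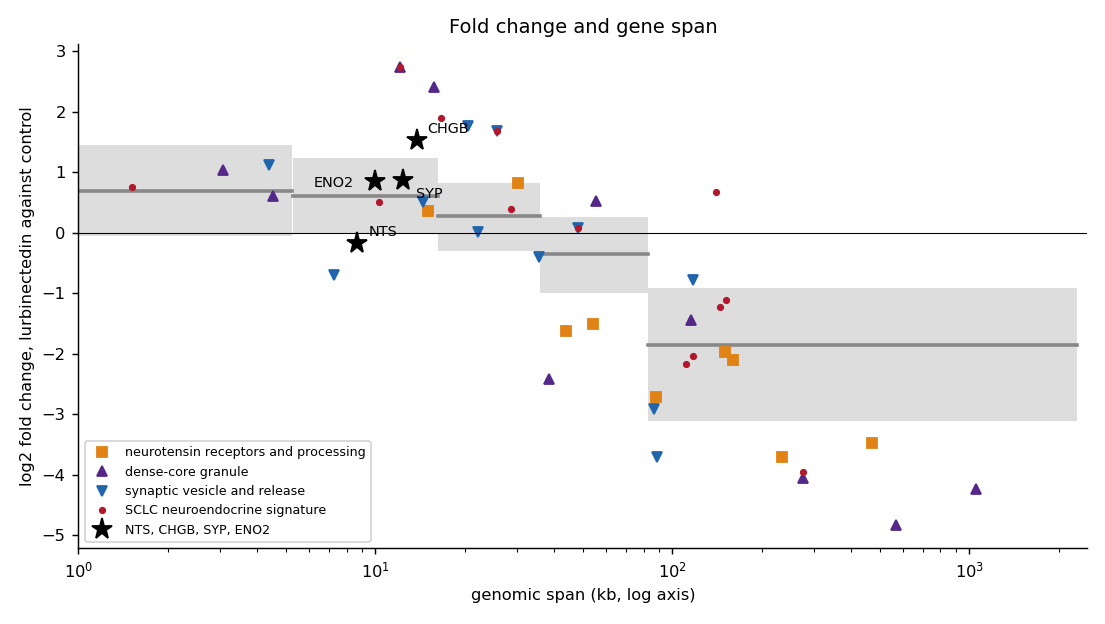
Each symbol is a tested gene of 4 lists or a tested member (stars), by genomic span in kilobases on a log axis and log2 fold change with lurbinectedin against control. Grey lines and bands are the median and the interquartile range, in each of 5 bins of span, of all tested genes outside the mitochondrial genome. The medians run from 0.69 to -1.86, CHGB lies above the band of its bin, SYP and ENO2 lie inside it, and NTS lies below it.

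The genes whose levels followed each member most closely over the 12 libraries were named by Pearson's r of log2(CPM + 1), among 10431 genes with a mean of at least 5 CPM. For NTS these were MORF4L1 (r = 0.956), TMA16 (0.953) and ABRAXAS2 (0.951), and 30 genes reached 0.9. For CHGB they were RNF113A (0.995), SNRNP70 (0.993) and SF3B2 (0.993), the last 2 both genes of the splicing machinery. SYP was followed by LSM14B (0.995), CAVIN1 (0.994) and FOSL2 (0.993), and ENO2 by FGFR3 (0.990), NKD2 (0.990) and ENGASE (0.986). As many as 1525, 2014 and 1359 genes reached 0.9 with CHGB, SYP and ENO2. The points share libraries, depth and 2 separated blocks of groups, with and without lurbinectedin, and r is given with no test.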

How the data were processed

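Raw read counts per gene, deposited by the authors with 1 table per library, were used for 12 libraries. Per the labels' protocols, libraries came from a poly(A) selection kit, and per the submitters' processing notes the tools were fastp 0.23.2, STAR 2.7.9 and featureCounts of Subread, on hg38. Settings for strand and multi-mapping reads are not given in the sources used here. Totals ran from 23206414 to 33222162 counts per library. Symbols matched 60507 of 60649 identifiers. GENCODE 29 holds 37318 of the identifiers in the same version, each at the same position, so coordinates are on GRCh38. Between replicates, counts differed by more than sampling noise, and each library counted as 1 sample. The chi-square per degree of freedom was 3.547 to 4.072 between control libraries. It was 273.568 and 256.414 for teriflunomide replicate 3 against its replicates, and 82.153 and 127.815 for combination replicate 2 against its own. Such an excess does not show that libraries came from separate cultures.

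Computed here: genes were kept by filterByExpr (16683), scaled by TMM and fitted with edgeR 4.0.16 (R 4.3.3, limma 3.58.1), a robust quasi-likelihood fit with 1 mean per group over all 12 libraries. All 6 contrasts were tested with Benjamini-Hochberg adjustment over all genes and called under 0.05. Only the contrast of lurbinectedin against control was also run on simulated data. Far fewer genes were changed there than were called in the real libraries, so that run does not cover the scaling or the other contrasts. The standard error is the log2 fold change over the square root of F, and intervals are 95%. RPKM used the deposited gene lengths. Alternatives, including DESeq2 1.42.0, number 23. The 9 members and the 10 other lists, written from general knowledge, were chosen with earlier results of these data known. Those lists are neurotensin receptors and processing, dense-core granule, synaptic vesicle, lineage factors, surface and peptide genes, paralogs, neuroendocrine and non-neuroendocrine signatures, and epithelial and stromal or immune markers. Named are all members, up to 4 genes per list by adjusted p over the comparisons with control, the subtype factors, the receptors, and the 3 genes closest to each member. Other genes were named after their values were seen. Some listed genes are not reported here. Mitochondrial shares varied within groups, so 2 libraries were also left out together. Promoter stretches are 250 bases from RefSeq, present for 5 members.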

Additional observations from a re-analysis of the deposited data

How the results depend on the processing

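The rises of CHGB, SYP and ENO2 with lurbinectedin, with the combination, and with the combination against teriflunomide were called under all 23 alternatives. Their log2 fold changes with lurbinectedin ran from 1.296 to 1.57 for CHGB, 0.64 to 0.92 for SYP and 0.62 to 0.90 for ENO2, and with the combination from 0.94 to 1.39, 0.85 to 1.07 and 0.75 to 1.03. Values near 0 changed sign. CHGB with teriflunomide went from 0.02 to -0.0766 with library size as the only scaling, -0.0093 with no expression filter, -0.0083 with only the compared groups in the fit, and -0.12 with both high-mitochondrial libraries (teriflunomide replicate 3 and combination replicate 2) left out, and between -0.12 and 0.105 when 1 library was left out. NTS between combination and lurbinectedin went from -0.01 to 0.0304 with library size, 0.0003 with no filter, and between -0.16 and 0.15 when 1 library was left out. ENO2 in the same comparison ran from -0.11, without combination replicate 3, to 0.18. Combination against teriflunomide called 3 members, and 5 with no filter, which added NTS and SCG2. Over all genes that comparison called 11835 of 16683, and 12915 of 35577 with no filter. Combination against lurbinectedin called 0 members, and 1 (CHGB) with both high-mitochondrial libraries left out. With both out, genes called in that comparison went from 0 to 3640. The cause of these changes was not tested.

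Among list counts that moved by over 1.5 times, with library size as the only scaling teriflunomide called 0 genes higher in the neurotensin, granule and lineage lists and the non-neuroendocrine signature (1 each before), 1 in the vesicle list (2 before) and 1 in the neuroendocrine signature (3 before). It called 0 lower in the vesicle list, lineage list and non-neuroendocrine signature (1 each before). In the neurotensin list, lurbinectedin and the combination then called 0 higher (1 and 2 before), and lurbinectedin called 2 paralogs lower (1 before). Smaller moves included the neuroendocrine signature under lurbinectedin (6 higher, 8 before; median 0.27, 0.50 before) and the vesicle list under both treatments with lurbinectedin (3 higher, 4 before). With both high-mitochondrial libraries left out, an alternative added for the lists after seeing the data, teriflunomide called 2 lower in the neurotensin list, 1 higher in the vesicle list, 1 paralog lower, 1 lower in the neuroendocrine signature, 4 higher and 2 lower in the non-neuroendocrine signature, and 1 epithelial marker higher. Lurbinectedin then called 2 higher in the neurotensin list, and the combination 2 paralogs lower, with calls of other single genes changed too. Over all genes, that scaling called 4313 higher and 6700 lower with lurbinectedin (5999 and 5954 before) and 4289 and 6164 with the combination (5687 and 5731 before).

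The labels number libraries 1 to 3 in each group, but same-numbered libraries did not deviate together: of 18 pairs, 4 had a correlation of deviations over 0.1 (range -0.547 to 0.248). With the replicate number as a block, 415 genes were called with teriflunomide (1002 before), 11591 with lurbinectedin (11953), 11044 with the combination (11418), 0 and 11471 between combination and each drug (0 and 11835), and 8 for the interaction (43). The block changed no call of a member. It ended the calls of NTSR1 and TLCD3B with lurbinectedin, THOP1 and UCHL5 with the combination, and RAB3A, SYN1, RTN1, PLAU and ANXA1 with teriflunomide. Depth limits NCAM1, SCG2, SCG3, NTSR1, CHGA and POU2F3, all at few counts. UCHL1 and INSM1 had no count in any library, with an upper limit of 0.008706 CPM that covers counting error only.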
